A study of Homo sapiens with 12 samples.

Results

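PAX5, POU2AF1, POU2F2, SPI1, SPIB, IKZF1 and BACH2 encode 6 transcription factors and 1 coactivator of the B lineage. They were followed over 12 Affymetrix HG-U133A arrays through all 12 probe sets (groups of short probes on the array) that the platform annotation assigns to 1 of these symbols and no other. These are 7 of the 11963 genes that the annotation names in this way. The arrays carried RNA of 6 human lymphoma cell lines in untreated culture, each line on 2 arrays. KM-H2, L1236 and L428 are labelled as Hodgkin cells. Namalwa (a Burkitt lymphoma line), SU-DHL4 and SU-DHL6 (lines of diffuse large B-cell lymphoma) are labelled as B-cell lymphoma cells. Each line stands for a single tumour in culture. Per the design text, SU-DHL4 and SU-DHL6 were newly profiled, while the other 4 lines came from an earlier dataset of the same group, and Namalwa alone represents the B-cell type beside the Hodgkin lines there. Because a line is a bulk sample, fewer expressing cells and less RNA per cell cannot be told apart.

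PAX5 binds DNA through a paired domain and commits lymphoid progenitors to the B lineage. It activates genes of the B-cell receptor complex and represses genes of other lineages. POU2F2 (OCT2) binds octamer sites in immunoglobulin and other B-cell promoters, and POU2AF1 (OBF1, BOB.1) is the coactivator that docks onto it there. SPI1 (PU.1) and SPIB are closely related ETS factors that bind purine-rich sites, SPI1 in myeloid and B cells and SPIB in lymphoid and plasmacytoid dendritic cells. IKZF1 (Ikaros) is a zinc finger factor needed for lymphoid development, and BACH2 is a leucine zipper repressor that holds back plasma cell differentiation. Loss of several of these factors is a known trait of classical Hodgkin lymphoma, whose tumour cells derive from B cells but have lost much of the B-cell programme.

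All values are log2 signals after RMA (robust multi-array average), a method that corrects background, normalises arrays to each other and sums up the probes of a set. The arrays had near-equal medians (6.85 to 6.92) and lower quartiles of 5.64 to 5.75. Signals near or under that quartile could not be told from background here, and a difference that reaches into this range understates the fold. Duplicate arrays of a line correlated at 0.981 (SU-DHL6) to 0.995 across probe sets. More than 2-fold separated the SU-DHL6 duplicates at 465 probe sets (2.09%), where the other lines had 17 to 122 such probe sets, and the 3' minus 5' signal of GAPDH was 0.47 on SU-DHL6 replicate 2 against -0.09 to 0.16 on the other arrays. Of 5 B-cell markers, 4 were measured, and their summed linear signal was 7993 to 12869 in the B-cell lines and 549 to 629 in the Hodgkin lines. The 5 Hodgkin markers summed to 1906 to 9342 in the Hodgkin lines and 431 to 471 in the B-cell lines. Of these 5, 1 was higher in the Hodgkin lines at an adjusted p under 0.05 in limma (FUT4) and 0 were lower. At an unadjusted p under 0.05, 4 passed, and IL13 differed by 0.26 (adjusted p = 0.654). Of the 7 T and NK cell markers, 0 differed between the types (limma, adjusted p under 0.05, and 0 at an unadjusted p under 0.05), with sums of 759 to 897 in the Hodgkin and 748 to 773 in the B-cell lines. Of the 6 measured myeloid markers, 0 differed (1 at an unadjusted p under 0.05), with sums of 363 to 489 in the Hodgkin lines and at most 362 in the B-cell lines, and of 4 plasma cell markers 1 was lower in the Hodgkin lines (2 without SU-DHL6 replicate 2). The plasma cell markers summed to 354 to 411 in the Hodgkin and 2006 to 2538 in the B-cell lines. Over all 11963 genes, 1837 had an unadjusted p under 0.05 between types in limma.

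In the mean over the lines, 6 of the 7 genes were lower in every Hodgkin line than in any B-cell line, with IKZF1 as the exception. Over all probe sets, 12.1% had Hodgkin line means that all lay below the B-cell line means. All 6 Hodgkin arrays lay below all 6 B-cell arrays for 4 of the 7 genes, namely PAX5, SPI1, SPIB and BACH2, as for 5.19% of probe sets. The size of the difference varied widely, from 0.61 for POU2F2 to 4.36 for POU2AF1 on the log2 scale. Tested with the line as the unit (3 Hodgkin against 3 B-cell lines, limma), 2 of the 7 passed an adjusted p of 0.05, POU2F2 and SPI1, against 1.23% of all probe sets. Both lay close to the threshold. PAX5, POU2AF1, SPIB and BACH2 had greater differences and did not pass, with SDs among Hodgkin lines of 0.91 to 3.23, against 0.08 for POU2F2 and 0.17 for SPI1.

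**Figure D1:**
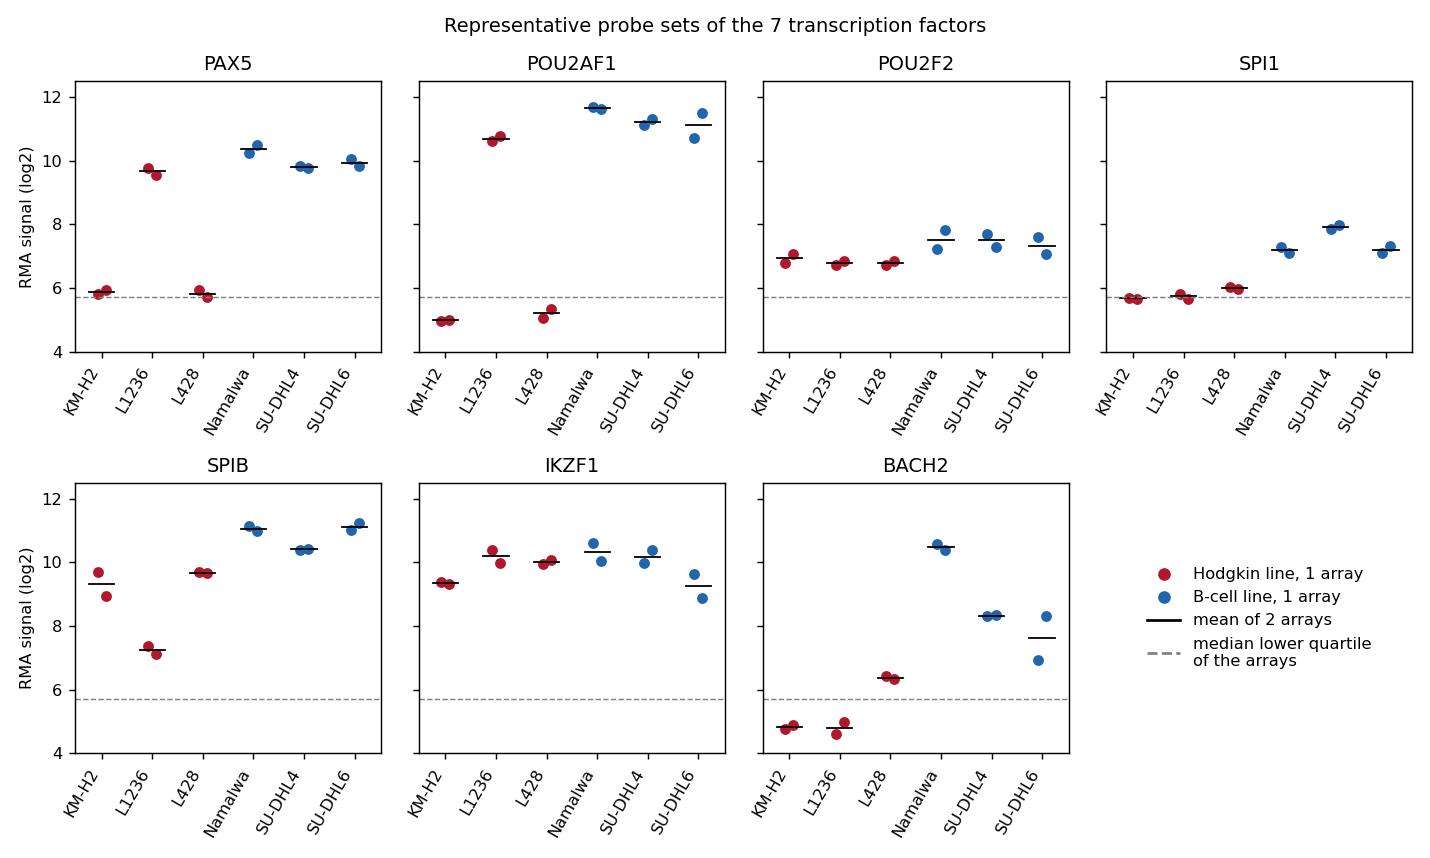
RMA signal (log2, vertical axis) of the representative probe set of each of the 7 genes on each of the 12 arrays (points) by line (horizontal axis), with the mean of the 2 arrays of a line as a bar and the median lower quartile of the arrays as a dashed line. PAX5 and POU2AF1 reach 9.66 and 10.69 in L1236 and stay under 6 in KM-H2 and L428, whereas SPIB has its lowest value, 7.26, in L1236.

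Among the 5 genes whose line means spanned over 2 log2 units, PAX5, SPIB and BACH2 have an entry in the RefSeq promoter table used here (assembly GRCh38.p14), which holds 250 bases before and 50 bases after the annotated start. Their promoters are shown because these 3 genes carry the differences between lines described next. Both strands were searched for an octamer (ATGCAAAT), a PU box (GAGGAAGT), a TATA box (TATAAA) and a cyclic AMP response element (CRE, TGACGTCA, which reads the same on both strands). Matches are in capitals, and none of them overlap. PAX5 is read on the minus strand at chr9:37034219-37034518, SPIB on the plus strand at chr19:50418688-50418987 and BACH2 on the minus strand at chr6:90296794-90297093.
PAX5: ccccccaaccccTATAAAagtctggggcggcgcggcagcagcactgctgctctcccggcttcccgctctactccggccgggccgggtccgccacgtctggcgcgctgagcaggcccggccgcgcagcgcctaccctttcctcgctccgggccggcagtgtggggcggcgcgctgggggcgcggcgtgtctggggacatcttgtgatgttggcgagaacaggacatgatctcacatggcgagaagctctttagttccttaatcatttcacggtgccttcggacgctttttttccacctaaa
SPIB: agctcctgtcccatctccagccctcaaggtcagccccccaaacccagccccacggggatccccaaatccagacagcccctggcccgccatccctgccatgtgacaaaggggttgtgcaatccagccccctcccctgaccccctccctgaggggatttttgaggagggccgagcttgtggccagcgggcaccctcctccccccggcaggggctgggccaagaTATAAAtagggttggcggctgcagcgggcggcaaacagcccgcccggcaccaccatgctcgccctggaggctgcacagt
BACH2: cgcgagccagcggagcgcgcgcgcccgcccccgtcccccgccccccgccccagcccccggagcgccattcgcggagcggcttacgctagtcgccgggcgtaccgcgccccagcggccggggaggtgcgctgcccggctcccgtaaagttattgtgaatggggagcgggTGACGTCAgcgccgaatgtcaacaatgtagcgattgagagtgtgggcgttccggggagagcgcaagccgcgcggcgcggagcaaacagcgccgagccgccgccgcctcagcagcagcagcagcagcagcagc
The letters TATAAA were found in PAX5, 238 bases before the start, and in SPIB, 29 bases before it, and 11.5% of the 35116 promoters in the table hold them. Whether either match acts as a TATA box was not tested. The CRE lies 82 bases before the BACH2 start and is found in 1.85% of promoters. No octamer (1.77% of promoters) or PU box (2.59%) was found in these 3 windows. CpG dinucleotides numbered 30 in PAX5, 11 in SPIB and 45 in BACH2, against a median of 14 over all promoters. The arrays read transcripts and give no measurement at these sequences.

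PAX5 was high in L1236 and in all B-cell lines and near the array background in the other Hodgkin lines. By probe set 221969_at, the signal was 9.76 and 9.56 on the arrays of L1236, 5.82 and 5.94 in KM-H2, and 5.94 and 5.71 in L428. The B-cell arrays gave 10.25 and 10.50 in Namalwa, 9.85 and 9.77 in SU-DHL4, and 10.04 and 9.84 in SU-DHL6. The arrays of L1236 thus lay just under the lowest B-cell array, and those of KM-H2 and L428 lay apart from all others. In the order of the lines from high to low, the step from L1236 to KM-H2 was called (3.78 ± 0.13 SE, adjusted p = 3.97e-08, with 8.91% of all probe sets called for this pair), while SU-DHL4 and L1236 differed by 0.15 ± 0.13 (adjusted p = 0.47) and KM-H2 and L428 by 0.05 ± 0.13 (adjusted p = 0.875). A call between lines needed an adjusted p under 0.05 and a difference of at least 1 on the log2 scale, in a fit of all 12 arrays in which the spread behind a p-value is that of duplicate arrays and may be technical.

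POU2AF1, like PAX5, was high in L1236 and the B-cell lines and low in KM-H2 and L428. Its only probe set, 205267_at, gave 10.63 and 10.76 in L1236, 4.98 and 4.99 in KM-H2, and 5.06 and 5.35 in L428. The B-cell lines gave 11.69 and 11.63 in Namalwa, 11.11 and 11.30 in SU-DHL4, and 10.73 and 11.49 in SU-DHL6. L1236 replicate 2 overlapped SU-DHL6 replicate 1, whose duplicate lay 0.76 higher. KM-H2 and L428 were below the lower quartile of their arrays. The step from L1236 to L428 was called (5.49 ± 0.21 SE, adjusted p = 8.42e-08, with 6.77% of probe sets called), and the 4 other steps in the order were not. Line means of PAX5 and POU2AF1 correlated at 0.999 over the 6 lines, a description of 2 levels (4 lines high, 2 low) on shared arrays.

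Against the mean of KM-H2 and L428, L1236 was 14.0-fold higher in PAX5 (log2 difference 3.81 ± 0.11 SE, adjusted p = 1.72e-08) and 48.4-fold higher in POU2AF1 (5.60 ± 0.18, adjusted p = 2.97e-08). SPIB went the other way in the same comparison and was 4.71-fold lower in L1236 (-2.24 ± 0.18, adjusted p = 1.16e-05). These 3 of 7 genes were called, where 6.38% of all probe sets were, and all 3 calls held under each of the 21 alternatives run. The mean of its 2 probe sets brought the PAX5 difference down to 1.92.

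Set against the 3 B-cell lines, L1236 was slightly lower in PAX5 (-0.38 ± 0.11 SE, adjusted p = 0.0197) and in POU2AF1 (-0.63 ± 0.17, adjusted p = 0.017). Both differences passed on p but were under the size that a call needed. Over the alternatives PAX5 ran from -0.48 to -0.22 (adjusted p 0.013 to 0.229), and it missed the p threshold with quantile normalisation repeated and without L1236 replicate 2. POU2AF1 ran from -0.76 to -0.50 (adjusted p 0.000247 to 0.139) and missed it without either array of L1236. By single lines, L1236 was lower in PAX5 than Namalwa (-0.72 ± 0.13, adjusted p = 0.00224), while its differences from SU-DHL4 (adjusted p = 0.47) and SU-DHL6 (-0.28 ± 0.13, adjusted p = 0.157) did not pass. POU2AF1 was likewise lower than in Namalwa (-0.97 ± 0.21, adjusted p = 0.00611), and did not pass against SU-DHL4 (adjusted p = 0.0991) or SU-DHL6 (adjusted p = 0.192). Namalwa shares a dataset with L1236, whereas against the SU-DHL lines line and dataset cannot be told apart. Against the 3 B-cell lines together, SPIB (-3.60 ± 0.17, adjusted p = 1.48e-07), BACH2 (-4.00 ± 0.28, adjusted p = 2.65e-06) and SPI1 (-1.70 ± 0.09, adjusted p = 2.92e-07) were called lower in L1236. The called share over all probe sets was 9.66%. This comparison and the one with KM-H2 and L428 share the arrays of L1236.

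**Figure D2:**
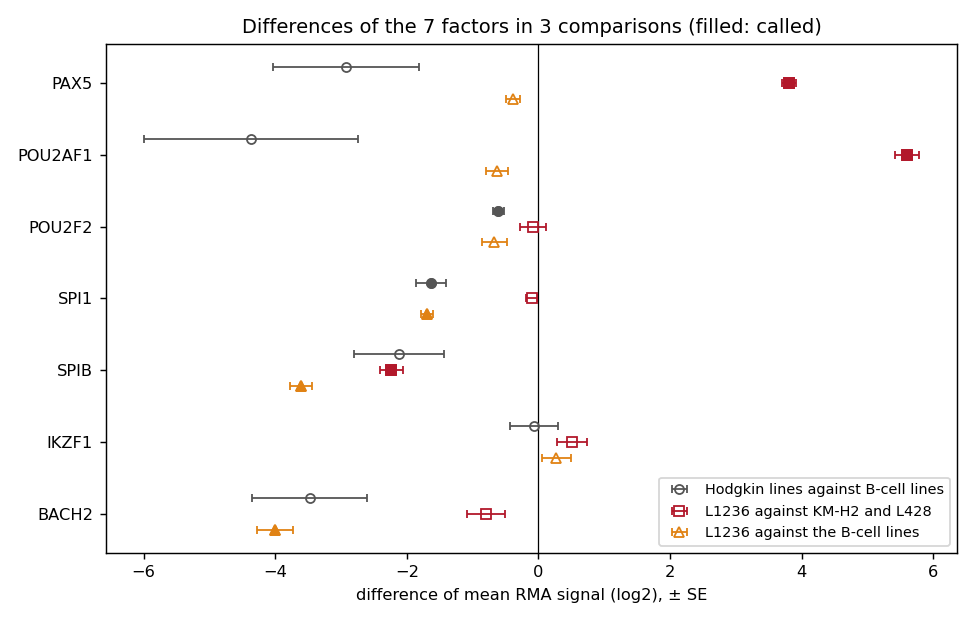
Differences of mean RMA signal (log2, horizontal axis) with their SE for the 7 genes (vertical axis) in Hodgkin against B-cell lines (6 line means) and in L1236 against the other Hodgkin lines and against the B-cell lines (12 arrays), with filled symbols for called differences. L1236 exceeds KM-H2 and L428 by 3.81 in PAX5 and 5.60 in POU2AF1, while SPIB lies at -2.24.

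In the comparison of types, the Hodgkin mean of PAX5 was 7.12 ± 2.20 (SD, n = 3 lines) and the B-cell mean 10.04 ± 0.30, a log2 difference of -2.92 ± 1.11 SE that missed the threshold (adjusted p = 0.331). For POU2AF1 the means were 6.96 ± 3.23 and 11.32 ± 0.30 (difference -4.36 ± 1.62 SE, adjusted p = 0.321). Without L1236 both passed, with differences of -4.19 (adjusted p = 0.0108) and -6.23 (adjusted p = 0.00556). L1236 was the Hodgkin line high in both genes, so leaving it out could not test the difference between types. With any other single line left out, neither gene passed. The adjusted p there reached 0.559 for PAX5 and 0.563 for POU2AF1. Differences between types made up 56.5% of the variance of the line means for PAX5 and 57.5% for POU2AF1, and the rest lay between lines of a type.

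The octamer factor POU2F2 itself lay near or not far above the array medians in all 6 lines, with line means of 6.78 to 7.52. Probe set 211771_s_at gave 6.79 and 7.07 in KM-H2, 6.72 and 6.84 in L1236, and 6.73 and 6.87 in L428. In the B-cell lines it gave 7.23 and 7.82 in Namalwa, 7.71 and 7.28 in SU-DHL4, and 7.61 and 7.05 in SU-DHL6. The Hodgkin lines were lower by 1.53-fold (6.84 ± 0.08 against 7.45 ± 0.10, SD, n = 3 lines, difference -0.61 ± 0.08 SE, adjusted p = 0.0492). Arrays of the types overlapped, since KM-H2 replicate 2 lay above SU-DHL6 replicate 2, and duplicates of the B-cell lines lay 0.43 to 0.59 apart. The second probe set, 211660_at, differed by -0.04 (adjusted p = 0.832). The call was lost without any 1 of the 6 lines (adjusted p 0.0717 to 0.183), and the adjusted p ran from 0.00865 to 0.277 over all alternatives. No neighbouring lines in the order of POU2F2 differed by the call rule.

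SPI1 was at or near background in the Hodgkin lines and low but higher in the B-cell lines. Its probe set 205312_at gave 5.69 and 5.66 in KM-H2, 5.81 and 5.67 in L1236, and 6.03 and 5.96 in L428. The values were 7.28 and 7.10 in Namalwa, 7.84 and 7.97 in SU-DHL4, and 7.11 and 7.31 in SU-DHL6. Every Hodgkin array lay over 1 log2 unit below the lowest B-cell array. The Hodgkin lines were 3.1-fold lower (5.80 ± 0.17 against 7.44 ± 0.41, SD, n = 3 lines, difference -1.63 ± 0.23 SE, adjusted p = 0.0499), and differences between types made up 91.1% of the variance of the line means. The adjusted p ran from 4.82e-05 to 0.3 over all alternatives. Its low end came from counting each of the 12 arrays as a sample, which treats duplicates as independent. The call was lost without any 1 line (0.0606 to 0.129), while the difference stayed at -1.75 to -1.40 there. It was also lost within the earlier dataset, where Namalwa is the only B-cell line (difference -1.39, adjusted p = 0.219). In the 12-array fit the step from Namalwa to L428 was called (1.19 ± 0.11 SE, adjusted p = 2.66e-05, with 8.91% of probe sets called).

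SPIB, by contrast, was still well above background in KM-H2 and L428. Probe set 205861_at gave 9.69 and 8.93 in KM-H2, 9.69 and 9.66 in L428, and 7.39 and 7.13 in L1236. The B-cell values were 11.13 and 10.98 in Namalwa, 10.39 and 10.43 in SU-DHL4, and 11.03 and 11.22 in SU-DHL6. The types did not overlap, and L1236 stood lowest. From KM-H2 to L1236 the step was called (2.05 ± 0.20 SE, adjusted p = 5.16e-05). From SU-DHL4 to L428, across the border of the types, the step of 0.73 ± 0.20 (adjusted p = 0.0241) was under the size needed. Between types the difference was -2.11 ± 0.68 SE (8.75 ± 1.30 against 10.86 ± 0.39, SD, n = 3 lines) and missed the threshold (adjusted p = 0.263, range 0.0118 to 0.734), and without L1236 it was -1.37 (adjusted p = 0.167).

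BACH2 had the second-widest range of the 7 genes, 5.68 log2 units between line means, after the 6.68 of POU2AF1. Probe set 221234_s_at gave 4.77 and 4.88 in KM-H2, 4.62 and 4.99 in L1236, and 6.44 and 6.33 in L428. It gave 10.59 and 10.38 in Namalwa, 8.32 and 8.34 in SU-DHL4, and 6.93 and 8.31 in SU-DHL6. KM-H2 and L1236 were under the lower quartile of the arrays, and L428 was between them and the B-cell lines. Of the 5 steps in its order 3 were called, from Namalwa to SU-DHL4 (2.16 ± 0.34 SE, adjusted p = 0.00228), from SU-DHL6 to L428 (1.23 ± 0.34, adjusted p = 0.024) and from L428 to KM-H2 (1.56 ± 0.34, adjusted p = 0.00778). These pairs had called shares over all probe sets of 4.26%, 8.91% and 7.82%. With each array left out in turn, an alternative chosen after seeing the data, the step from Namalwa to SU-DHL4 stayed called. The step from SU-DHL6 to L428 was 0.54 (adjusted p = 0.0388), under the size needed, without SU-DHL6 replicate 2, and missed the p threshold without L428 replicate 1 (0.0904) or replicate 2 (0.119). The step from L428 to KM-H2 missed it without L428 replicate 1 (adjusted p = 0.055), and with values raised to a floor KM-H2 minus L428 was -0.67 (adjusted p = 0.362). Namalwa and L428 belong to the earlier dataset and the SU-DHL lines to the new one, so in the first and second of these steps line and dataset cannot be told apart.

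Within the B-cell lines, BACH2 was the called gene in Namalwa against the SU-DHL lines (5.71-fold higher, 2.51 ± 0.29 SE, adjusted p = 0.000362, with 3.5% of probe sets called). Line and dataset cannot be told apart in this comparison either. In SU-DHL4 against SU-DHL6, 0 of 7 genes were called, with 5.07% of probe sets called. At an unadjusted p under 0.05, without regard to size, 3 of the 7 passed in limma, and the same 3 did so at an adjusted p under 0.05, namely SPI1, SPIB and IKZF1. The share of all probe sets passing without the size was not computed, so this count cannot be set against a general rate. The duplicates of SU-DHL6 lay 1.38 apart in BACH2, and without replicate 2 SU-DHL4 exceeded SU-DHL6 by 1.40 (adjusted p = 0.000455), whereas without replicate 1 the difference was 0.024 (adjusted p = 0.951), the ends of the range over the alternatives. The part of the 3' to 5' difference of that array in this value was not tested. Between types BACH2 was 11.1-fold lower in the Hodgkin lines (5.34 ± 0.91 against 8.81 ± 1.49, SD, n = 3 lines, difference -3.47 ± 0.87 SE), which missed the threshold (adjusted p = 0.175, range 0.00306 to 0.365). The low end of that range came from counting each of the 12 arrays as a sample, which treats duplicates as independent. Against Namalwa alone, within the earlier dataset, the difference was -5.15 (adjusted p = 0.274).

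IKZF1 was bright in all lines, with a range of 1.07 log2 units between line means. Its brightest probe set, 205039_s_at, gave 9.39 and 9.33 in KM-H2, 10.40 and 9.98 in L1236, and 9.94 and 10.07 in L428. The B-cell arrays gave 10.61 and 10.04 in Namalwa, 9.99 and 10.37 in SU-DHL4, and 9.62 and 8.88 in SU-DHL6. The types overlapped, with a difference of -0.07 ± 0.37 SE (adjusted p = 0.956) whose sign depended on the lines kept and turned to 0.05 with quantile normalisation repeated. No step between neighbours in the order of the lines was called. Of all pairs of lines, only the highest and lowest, Namalwa and SU-DHL6, differed by the call rule (1.07 ± 0.26 SE, adjusted p = 0.0197). The SU-DHL6 duplicates lay 0.74 apart here, and by probe set 205038_at the line means were 9.34 in Namalwa and 8.83 in SU-DHL6. The share of all probe sets called for this pair was not computed, and the call was not rerun with arrays left out. Line and dataset cannot be told apart in that pair. Differences between types made up 0.603% of the variance of its line means.

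The probe sets of IKZF1 disagreed on SU-DHL6. Probe set 216901_s_at gave 7.21 and 5.58 on its arrays and 8.14 and 8.48 on those of SU-DHL4, and was called lower in SU-DHL6 (SU-DHL4 minus SU-DHL6 1.92 ± 0.52 SE, adjusted p = 0.0329), with duplicates of SU-DHL6 1.63 apart and those of L1236 1.29 apart. By the brightest probe set, 205039_s_at, this difference was 0.93 ± 0.26 (adjusted p = 0.039), under the size needed, and 0.56 without SU-DHL6 replicate 2. Probe set 205038_at, whose duplicates lay within 0.15 of each other in each line, differed by 0.07 ± 0.09 (adjusted p = 0.662) between the same lines. It was higher in L1236 than in KM-H2 and L428 by 0.65 ± 0.08 (adjusted p = 0.000175), under the size needed for a call. Probe set 220704_at stayed at 4.61 to 5.32, below the lower quartile, on all arrays. The second PAX5 probe set, 206802_at, likewise stayed flat at 6.68 to 6.98, next to the array medians, where 221969_at spanned 4.55 log2 units between lines. The transcript parts that these probe sets read were not looked up.

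**Figure D3:**
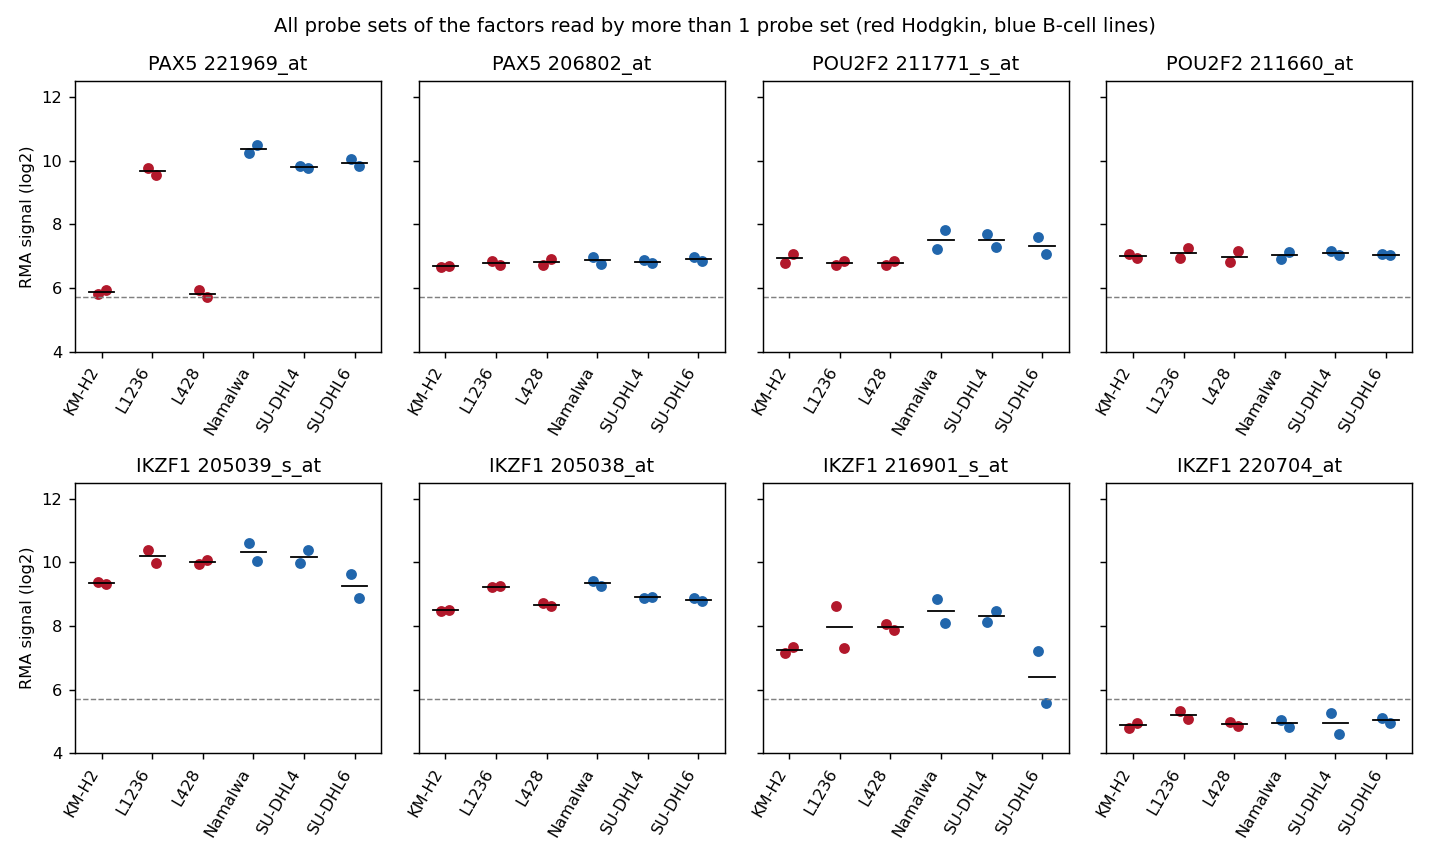
RMA signal (log2, vertical axis) on the 12 arrays by line (horizontal axis) for the 8 probe sets of PAX5, POU2F2 and IKZF1, with bars for the mean of 2 arrays and a dashed line for the median lower quartile. Probe set 221969_at of PAX5 separates KM-H2 and L428 from the other lines while 206802_at stays at 6.68 to 6.98, and 216901_s_at of IKZF1 is lowest on SU-DHL6 replicate 2, at 5.58.

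The authors' deposited table for Hodgkin against B-cell lines gives 6 of the 7 genes an adjusted p under 0.05, as it does 13.4% of all probe sets. Its adjusted p-values are 4.84e-05 for SPI1, 0.00307 for BACH2, 0.00867 for POU2F2, 0.0119 for SPIB, 0.0221 for POU2AF1 and 0.0243 for PAX5, and 0.912 for IKZF1. Limma run on the 12 arrays, each counted as a sample, gave the p-values of the authors' deposited table to within 5e-08. In that fit the duplicate arrays of a line count as independent, and the differences themselves are those given above.

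Of 11 measured genes that PAX5 is known to activate, 2 were called lower and 0 higher in the Hodgkin lines, namely CD79A, a signalling chain of the B-cell receptor (difference -5.10 ± 0.19 SE, adjusted p = 0.0049), and CD72, a B-cell surface coreceptor (-2.12 ± 0.30, adjusted p = 0.05 after rounding). The list median was -0.21, against 0.0036 over all genes, of which 1.34% were called, 0.869% lower and 0.468% higher. CD79A lay at 6.79 in KM-H2, 6.85 in L1236 and 6.99 in L428, with the B-cell lines at 11.70 to 12.37, and L1236 differed from the other Hodgkin lines by -0.04 ± 0.22 (adjusted p = 0.946). In L1236 against KM-H2 and L428, 2 of the 11 were higher and 1 lower (median 0.03, against -0.015 over all genes, of which 7.1% were called, 3.39% lower and 3.7% higher). FCER2, the low-affinity IgE receptor CD23, was higher by 2.93 ± 0.13 (adjusted p = 2.57e-07) at 9.36 in L1236 against 5.99 to 6.61 in the other 5 lines. NEDD9, an adhesion docking protein, was higher by 1.60 (adjusted p = 7.22e-06), and CR2, the complement receptor CD21, was lower by 2.77 (log2 difference -2.77, adjusted p = 7.28e-07) through KM-H2, where it lay at 10.81.

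Among 8 measured genes that PAX5 is known to repress, mostly from work in mice, 1 was called lower and 0 higher in the Hodgkin lines (median 0.04). That gene was JCHAIN, the joining chain of polymeric immunoglobulins (-5.40 ± 0.12 SE, adjusted p = 0.00106), and XBP1, a driver of secretion, had 1.25 (adjusted p = 0.585). In L1236 against KM-H2 and L428, 0 of the 8 were called by limma with the size required, and without the size, as at an unadjusted p under 0.05, 2 passed, NOTCH1 and XBP1 (-0.88, adjusted p = 0.000382, and 0.84, adjusted p = 0.00667). Over all 11963 genes, 4155 had an unadjusted p under 0.05 in that comparison by limma. Of 6 PAX5 cofactors, 0 were called between types by limma, and 0 at an unadjusted p under 0.05 (median -0.17). Those with the greatest differences were ETS1, an ETS factor recruited by PAX5 (-0.999, adjusted p = 0.426), and DAXX, a chromatin regulator (-0.59, adjusted p = 0.516). ETS1 was higher in L1236 than in KM-H2 and L428 (1.18 ± 0.2 SE, adjusted p = 0.00199).

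Of 6 octamer-dependent genes, 3 were called lower and 0 higher in the Hodgkin lines, with a median of -1.46. MS4A1, which encodes CD20, differed by -5.82 ± 0.44 SE (adjusted p = 0.0136), CD79B, the partner chain of CD79A, by -4.04 ± 0.18 (adjusted p = 0.00499), and BTK, a kinase of B-cell receptor signalling, by -2.67 ± 0.15 (adjusted p = 0.00901). In L1236, where POU2AF1 was 0.63 below the mean of the B-cell lines, MS4A1 lay at 6.08, CD79B at 6.72 and BTK at 6.62. The values in KM-H2 were 6.29, 6.72 and 6.32, and those in L428 were 6.09, 6.52 and 6.65. In L1236 against KM-H2 and L428, 0 of the 6 were called (limma, median 0.06), and 0 at an unadjusted p under 0.05. The differences there were -0.10 ± 0.29 SE for MS4A1, 0.10 ± 0.16 for CD79B and 0.13 ± 0.24 for BTK, with the least adjusted p 0.29 for CXCR5. Among 8 PU.1 and SPIB target genes, BTK was the 1 called lower and 0 were higher (median -0.01), and CYBB, a subunit of the phagocyte oxidase, followed with -1.06 (adjusted p = 0.0857).

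**Figure D4:**
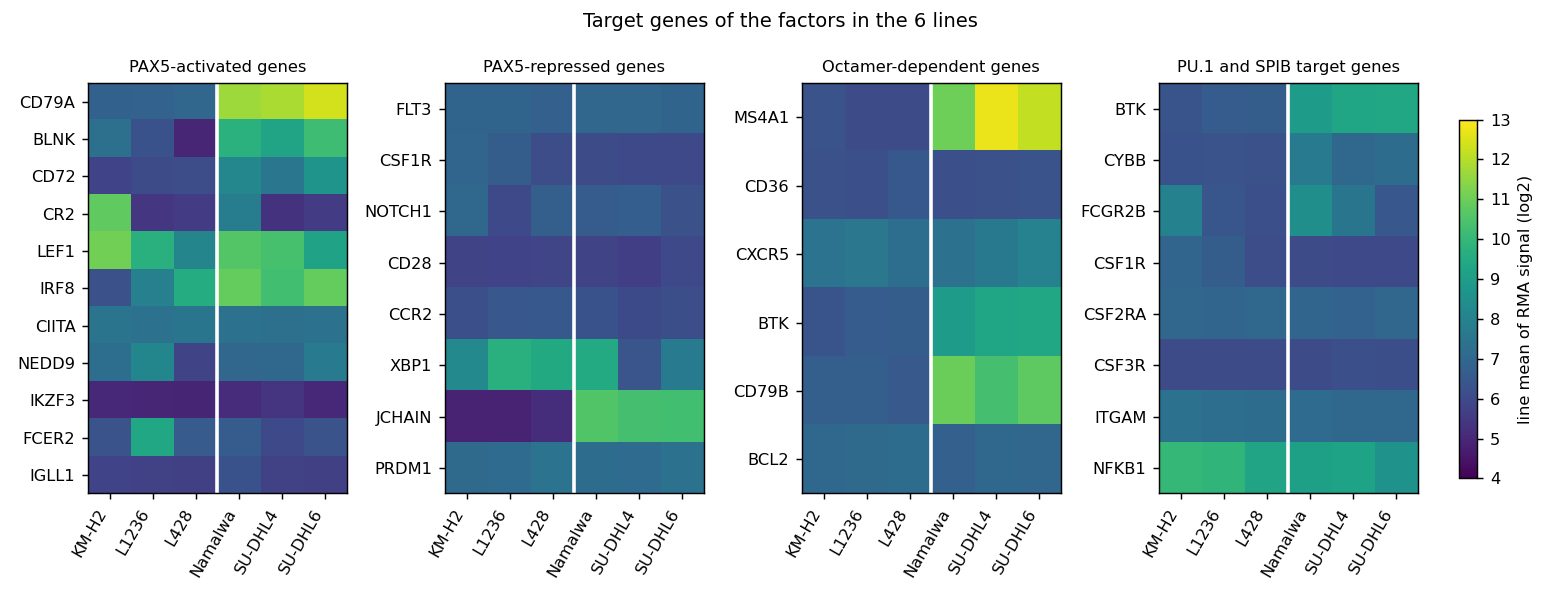
Line means of RMA signal (log2, colour scale) for the measured genes of 4 lists of target genes (rows) in the 6 lines (columns), with a white line between Hodgkin and B-cell lines. CD79A, MS4A1, CD79B and BTK are dark in all 3 Hodgkin lines, L1236 included, and FCER2 is bright in L1236 alone at 9.36.

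Relatives and partners of the 7 factors were read in the same way. Of 6 measured octamer and ETS relatives, ELF1, a lymphoid ETS factor, was lower in the Hodgkin lines (-2.14 ± 0.28 SE, adjusted p = 0.0464) and 0 were higher (median -0.84). In L1236 against KM-H2 and L428, ETS2 was lower (-1.10, adjusted p = 1.62e-05) and ETS1 higher. Of 10 measured Ikaros relatives and partners of its chromatin complexes, 0 were called between types (limma, median -0.19, and 1 at an unadjusted p under 0.05), led by the deacetylase HDAC1 (-0.95, adjusted p = 0.291) and IKZF5 (-0.45, adjusted p = 0.642). The corepressor CTBP1 was lower in L1236 (-1.12, adjusted p = 9.31e-05). Of 8 measured BACH2 partners and targets, 0 were called between types (limma, median -0.0057, and 1 at an unadjusted p under 0.05), with CDKN2A, a cell cycle inhibitor, at -0.96 (adjusted p = 0.679) and CDKN1A at -0.86 (adjusted p = 0.627). In L1236, CDKN2A was higher than the mean of KM-H2 and L428 (2.07 ± 0.12 SE, adjusted p = 1.74e-06), mainly through KM-H2. It lay at 10.57 in L1236, 9.82 in L428 and 7.19 in KM-H2. NFE2L2, a factor that shares small MAF partners with BACH proteins, was lower in L1236 (-1.02, adjusted p = 0.000844). PRDM1, the plasma cell regulator that BACH2 represses, had line means of 7.12 to 7.44 in Hodgkin and 7.14 to 7.37 in B-cell cultures (difference 0.0048, adjusted p = 0.99). These values were flat and not far above the array medians, and whether this probe set responds to the transcript was not tested.

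Of 12 other B-lineage transcription factors measured, 2 were called lower and 0 higher in the Hodgkin lines (median -0.80). BCL6, the germinal centre repressor, differed by -3.79 ± 0.37 SE (adjusted p = 0.0243) and FOXO1, a forkhead factor of early and germinal centre B cells, by -1.37 ± 0.09 (adjusted p = 0.0114). IRF4 went the other way (3.39 ± 0.64) and did not pass (adjusted p = 0.0981). Its line means were 11.11 to 11.48 in the Hodgkin and 6.48 to 8.90 in the B-cell lines. MYB (0.76, adjusted p = 0.622) and RUNX3 (0.27, adjusted p = 0.763) were also positive, and the rest were negative and not called. In L1236 against KM-H2 and L428, MYB (1.18, adjusted p = 0.000453) and ETS1 were higher and 0 lower (median 0.34). Without SU-DHL6 replicate 2, the counts of called genes between types were equal for each of these lists of targets, partners and relatives, as were those in L1236 against KM-H2 and L428. Without L1236, CD72, ELF1 and BCL6 missed the threshold between types (adjusted p = 0.125, 0.11 and 0.0684), and CD79A, MS4A1, CD79B, BTK, JCHAIN and FOXO1 passed it (0.0108, 0.0452, 0.015, 0.0198, 0.00303 and 0.0184).

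Genes with line means most like those of PAX5 were sought among 1163 genes other than the 7 factors whose line means spanned at least 2 log2 units, by Pearson correlation over the 6 lines, as a description. They were ZNF22 (0.992), RREB1 (0.991), ZHX2 (0.984), TPD52 (0.980) and CD27 (0.971), and the same 5 genes led for POU2AF1 (0.976 to 0.995). ZNF22, a zinc finger gene, lay at 9.60 in L1236, 5.59 in KM-H2, 5.04 in L428 and 9.19 to 9.95 in the B-cell lines. CD27, a receptor of the TNF family on memory B cells and plasma cells, lay at 9.74 in L1236, 7.25 in KM-H2, 7.37 in L428 and 10.40 to 10.94 in the B-cell lines. SPI1 was most like ZNF395 (0.997), VNN2 and RGCC, and POU2F2 most like TPST2 (0.994), TBC1D1 and the kinase gene SYK. For SYK the Hodgkin lines gave 6.39 to 6.43 and the B-cell lines 9.05 to 10.11. SPIB was most like TMEM243 (0.987), PPP1R2 and CCNB1IP1, IKZF1 like TFDP2 (0.970), MEF2C and MED21, and BACH2 like HPS4 (0.990), ID3 and RUBCNL. With 6 points on shared arrays and a small number of distinct levels, high correlations arise easily, and they say nothing of shared control.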

How the data were processed

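RNA of 6 cell lines was hybridised to 12 HG-U133A arrays, 2 per line. The authors made the deposited log2 values with RMA in R 2.10.1, per the submitters' processing notes and the series design. The authors' deposited table holds a p-value, an adjusted p-value and a log2 difference per probe set. Of 22283 probe sets, 68 controls were left out and 22215 tested, all in R 4.3.3 with limma 3.58.1. A single symbol was annotated to 19065 probe sets, while 1043 had several and 2107 had none. Of the 19065, 19053 matched the RefSeq gene table by Entrez identifier and 0 symbols changed. The probe set with the highest mean represented a gene. Lymphoma types were compared on 6 line means and lines in a 12-array fit, with lmFit, eBayes and Benjamini-Hochberg adjustment over all probe sets. All adjusted p-values but the authors' come from limma. The steps were tested on simulated data. For the comparison of types, the simulated spread between lines was capped below the SDs among Hodgkin lines of PAX5, POU2AF1, SPIB and BACH2. The simulation therefore says nothing of the power for these genes.

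The 7 genes and the 14 gene lists (97 genes, 86 measured) were chosen with earlier results of these data known. Named were all 7 genes. From each list, up to 4 genes called between types were named by size of difference (the greatest 2 where under 2 were called), with up to 4 called in L1236, and then the genes most like each factor. Others named (CXCR5, NOTCH1, PRDM1, IRF4, RUNX3, MYB between types and the target values in single lines) were picked after their values were seen. The labels do not say if duplicates were separate cultures. Deviations of same-numbered arrays from their line means correlated at -0.443 to 0.296 over 15 pairs of lines, with no common sign. Replicate numbers were therefore not used as a pairing in the main fits, and a replicate block was run as an alternative. The number of lines limits the precision between types, and the number of arrays that between lines.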

Additional observations from a re-analysis of the deposited data

How the results depend on the processing

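Between lymphoma types, the 2 calls among 7 genes became 1 with arrays centred on their medians, with dim probe sets left out, with an intensity trend, with the mean of all probe sets of a gene and with quantile normalisation repeated. They became 0 with the dataset as a block, in the published dataset only and with values raised to a floor, and ran from 0 to 2 when 1 line or array was left out. The 12 arrays with the line as a random block and no replicate block gave 5, the replicate block with the line as a random block gave 4, and each of the 12 arrays counted as a sample, an alternative chosen after seeing the data, gave 6. L1236 against KM-H2 and L428 gave 3 calls in each alternative, replicate block included. KM-H2 against L428 gave 0 in place of 1 with values raised to a floor, and 0 to 1 with an array left out, where BACH2 missed the threshold without L428 replicate 1 (adjusted p = 0.055, range over all alternatives 2.54e-05 to 0.362). By adjusted p alone, L1236 against the B-cell lines gave 6 in place of 3, Namalwa against the SU-DHL lines 3 in place of 1, and SU-DHL4 against SU-DHL6 3 in place of 0. With an array left out the latter gave 0 to 1, with 1 both without SU-DHL6 replicate 1 and without SU-DHL6 replicate 2. Where not said otherwise, the cause of these shifts was not tested. With each array counted as a sample, the share of all probe sets is the 13.4% of the authors' deposited table. Shares of all probe sets were not computed for the other alternatives, so their counts cannot be set against a general rate. Signs turned only in differences that were not called. IKZF1 between types was 0.048 with quantile normalisation repeated and -0.40 to 0.18 with a line or array left out. PAX5 in KM-H2 against L428 was -0.041 with the mean of all probe sets and -0.062 to 0.17 with an array left out, and POU2F2 in L1236 against KM-H2 and L428 was 0.010 with that mean. With an array left out, POU2F2 ran from -0.0076 to 0.27 in KM-H2 against L428, from -0.19 to 0.40 in Namalwa against the SU-DHL lines and from -0.12 to 0.44 in SU-DHL4 against SU-DHL6, POU2AF1 in the last comparison from -0.28 to 0.48, and SPIB in KM-H2 against L428 from -0.74 to 0.011. Signals near the array background limit what PAX5, POU2AF1, SPI1 and BACH2 show in the lines where they are low, and each type rests on 3 lines.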
